A study of Mus musculus with 20 samples.

Results

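Broad active H3K4me3 domains were examined in mouse hematopoietic stem cells (HSCs) of the fetal liver and of adult bone marrow. Peaks of trimethylated histone H3 lysine 4 (H3K4me3) from both stages were merged on chromosomes 1 to 19 wherever they shared at least 1 bp, which gave 17586 regions. A region was kept if it was at least 3500 bp wide, overlapped no peak of H3K27me3 at either stage and overlapped a peak of H3K27ac at both stages. These criteria kept 949 domains, 5.40% of the merged regions, and the domains covered 4258177 bp, 12.4% of the length covered by all merged regions. The domains were therefore chosen by their measured width, H3K27ac and H3K27me3. Those properties are given below as a description of the choice. H3K4me1 took no part in it, and neither did H3K27ac peaks that lie wholly outside the domains. H3K27ac that runs past an edge belongs to peaks that the rule counted.

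The study profiled 4 histone modifications and input DNA by chromatin immunoprecipitation and sequencing (ChIP-seq) in 20 samples, 2 for each of 10 combinations of stage and target. All mice were of strain B6129SF1, and no group carried a transgene, deletion or treatment in the labels. Fetal cells came from the liver at embryonic day 14.5 and adult cells from the marrow of mice 6 to 8 weeks old, and both were sorted as Lin-Sca1+cKit+CD135-, with 50000 cells per reaction. That gate is enriched for HSCs and can also hold early multipotent progenitors, and the cell identity could not be checked on marker genes because gene positions on mm9, the build of the lists, were not used here.

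For every modification and stage there was 1 deposited list of peaks, titled as combined from the replicates. No value below has a replicate error, no test between stages was possible, and stage cannot be told apart from library or from peak calling. Bracketed ranges are 95% intervals, exact Clopper-Pearson for shares, and cover counting error over domains only. Neighbouring domains are not independent, and domains are not replicates of a stage. The lists differed in size: 92821 peaks of fetal H3K4me1 against 12523 of adult H3K4me1, 23820 against 18221 for H3K27ac, 17125 against 16717 for H3K4me3, and 14843 against 22985 for H3K27me3. Read depth behind the lists is unknown.

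H3K4me3 is deposited at transcription start sites, and H3K27ac marks active promoters and enhancers. H3K4me1 is typical of enhancers and of the shoulders of active promoters, and H3K27me3 is the mark of Polycomb repression. Most active promoters carry a narrow H3K4me3 peak over the first nucleosomes of the gene. Domains much wider than that have been described at genes that are strongly and steadily transcribed in a cell type, including genes that define the identity of that cell type. Coordinates below are 1-based on mm9, and genes are not named because no annotation of that build was used here.

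The 949 domains had a median width of 4085 bp (4035 to 4164) and ranged from 3503 to 16717 bp. Many were only a little wider than the threshold: 417 (43.9%) were below 4000 bp. A further 337 had at least 4000 but under 5000 bp, 190 at least 5000 but under 10000 bp, and 5 at least 10000 bp. The narrowest members were chr7:4762113-4765615 and chr13:14154373-14157875, each 3503 bp wide, and the widest regions that missed the threshold while meeting the other criteria were chr11:58790141-58793639 with 3499 bp and chr17:71531501-71534998 with 3498 bp. No gap in the widths separates the domains from narrower regions. For comparison, 9616 regions met the same H3K27ac and H3K27me3 criteria below the width threshold, with a median width of 2090 bp, and 121 regions of at least 3500 bp overlapped H3K27me3. The H3K27ac criterion removed few regions: of 957 of at least 3500 bp without H3K27me3, 949 had H3K27ac at both stages, 5 at the fetal stage alone, 2 at the adult stage alone and 1 at neither. Of the 121 with H3K27me3, 105 had H3K27ac at both stages, and of all 17586 merged regions 11569 did.

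The widest domain was chr8:97500266-97516982. It spanned 16717 bp, of which fetal H3K4me3 covered 15650 bp in 2 peaks and adult H3K4me3 16218 bp in 2 peaks. H3K27ac covered 10258 bp in the fetal list and 16439 bp in the adult list, so the adult acetylation ran over nearly the whole domain while the fetal acetylation left its right part free. That right part was occupied in the fetal list by an H3K4me1 peak of 12142 bp that continued past the edge, and fetal H3K4me1 covered 9544 bp of the domain in all, the most of any domain. Adult H3K4me1 covered 574 bp there.

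The next widest, chr11:18906951-18922065, was built differently. Its H3K4me3 covered 13988 bp in the fetal list and all 15115 bp in the adult list, and its H3K27ac 12838 and 14685 bp. Fetal H3K4me1 covered 666 bp of it, near the ends, and adult H3K4me1 none. The remaining domains above 10000 bp were chr5:143574881-143585617 (10737 bp), chr11:23973579-23984184 (10606 bp) and chr11:120090334-120100580 (10247 bp), each with 1 H3K4me3 peak per stage that covered at least 9578 bp. The fetal H3K27ac was the longer in all 3, with 10092 against 9852 bp, 10529 against 7185 bp and 8974 against 6967 bp.

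**Figure D1:**
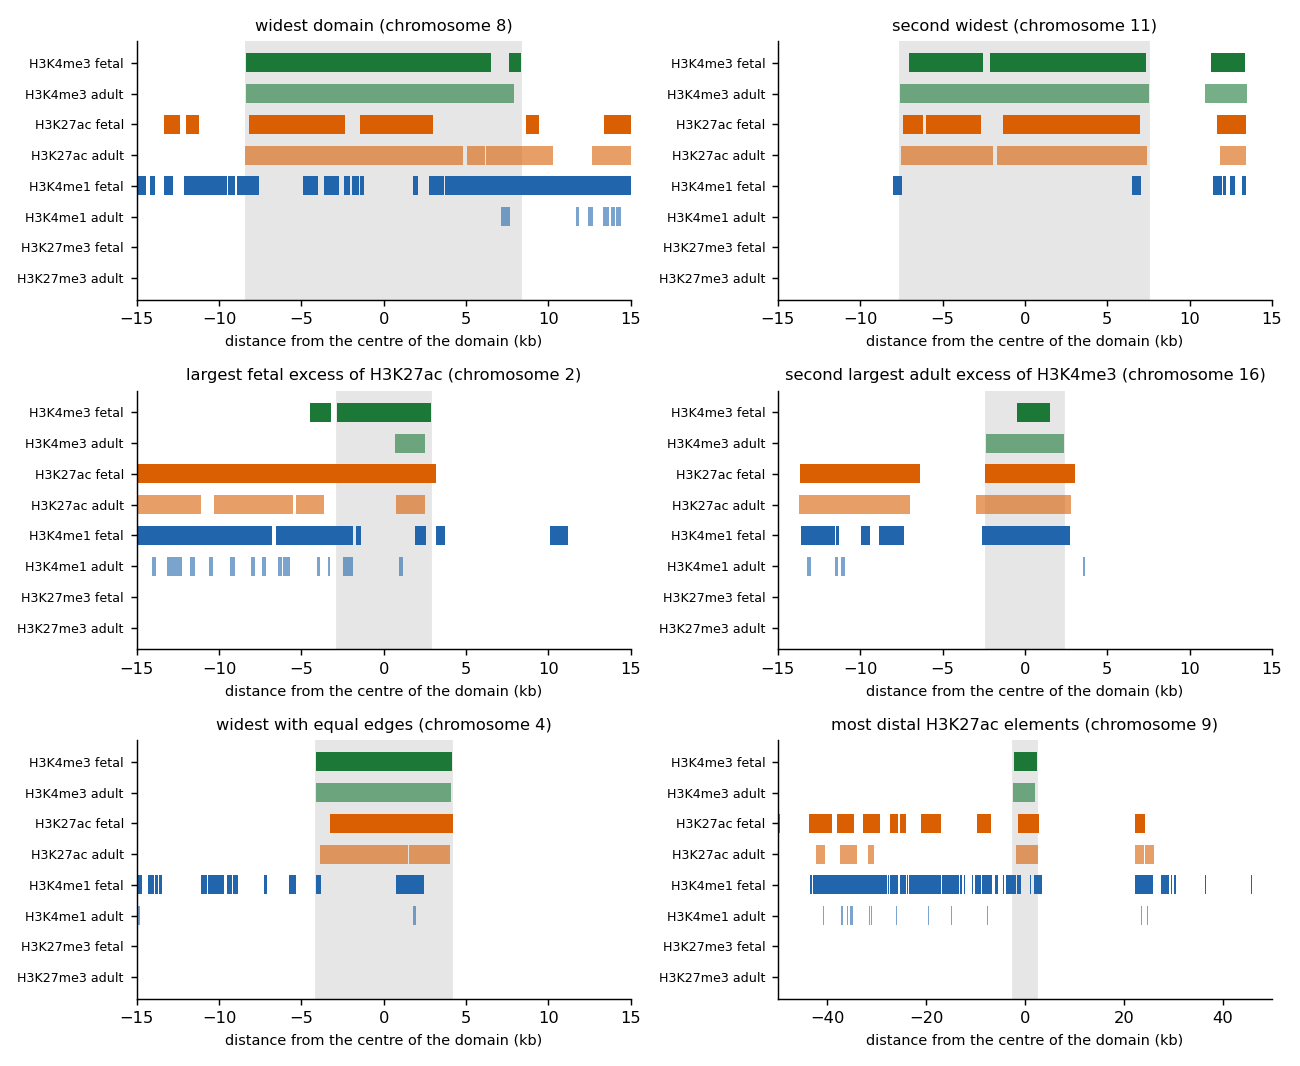
Peaks of each mark and stage around 6 domains, by distance from the centre of the domain in kb; grey shading marks the merged domain, dark bars fetal peaks and pale bars adult peaks. In the widest domain a fetal H3K4me1 peak of 12142 bp covers the right part, in the next widest fetal H3K4me1 covers 666 bp, and 10 fetal and 6 adult distal H3K27ac elements surround the domain at the lower right.

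H3K4me3 was present at both stages in 948 of the 949 domains. A single peak per stage made up 857 of them (90.3%), so most domains were one unbroken stretch of H3K4me3 rather than a chain of peaks. The median covered length was 3944 bp in the fetal list and 3874 bp in the adult list. The domains were not all broad at both stages on their own: 610 reached 3500 bp of H3K4me3 in both lists, 802 in the fetal list, 725 in the adult list, and 32 in neither list, where only the merged region was wide enough. The exception without fetal H3K4me3 was chr17:84522267-84525953, with 3687 bp in the adult list. It had 2494 bp of H3K27ac and 3235 bp of H3K4me1 in the fetal list, so both marks were present where the fetal H3K4me3 peak was not.

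The width of a domain was much the same at both stages. The median log2 ratio of fetal to adult H3K4me3 length was 0.023 (0.011 to 0.035) over 948 domains, and 535 were longer in the fetal list against 411 in the adult list. A difference of at least 1.5-fold was reached by 16 domains toward the fetal stage (1.69%) and by 26 toward the adult stage (2.74%). Over all 14892 merged regions with H3K4me3 at both stages the shares were 1.1% and 3.1%, so the domains were near that background. Narrower active regions had lower shares, 0.518% (0.381 to 0.689) and 1.75% (1.49 to 2.05). The intervals of the domains were 0.968 to 2.73% and 1.80 to 3.99%, so the intervals overlapped toward the adult stage. The extension at 1 stage that helps a region to pass the width threshold bears on this comparison as well. Across domains, fetal and adult lengths were related with a Pearson r of 0.848 and a Spearman rho of 0.689, given as a description because all points come from the same pair of lists.

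**Figure D2:**
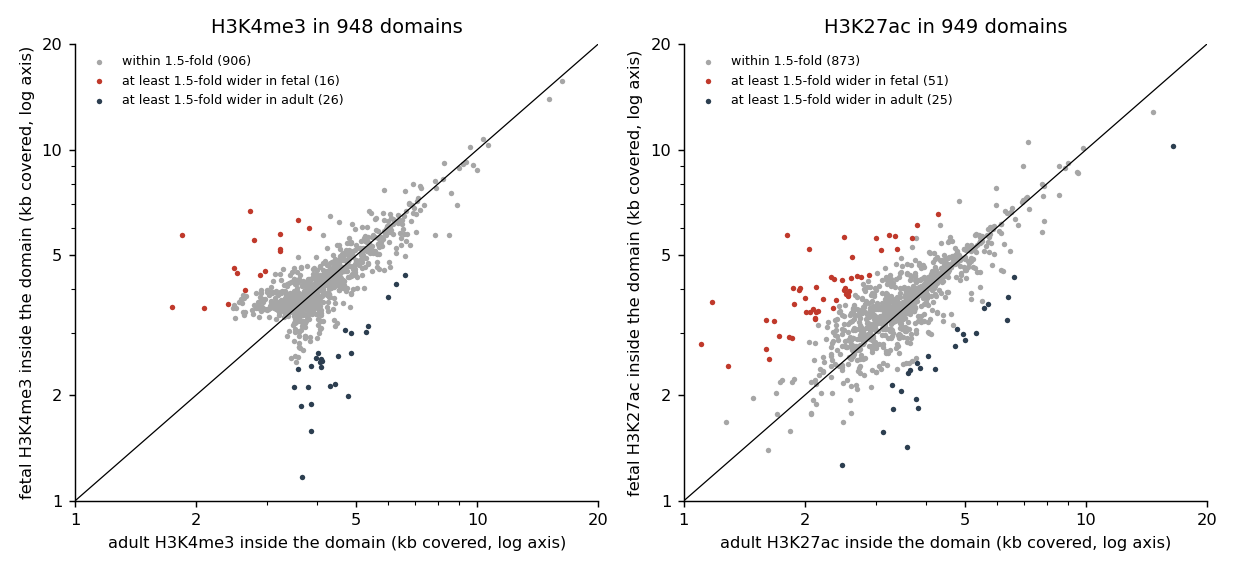
Length covered by fetal (vertical) and adult (horizontal) peaks inside each domain, in kb on log axes, for H3K4me3 (left, 948 domains) and H3K27ac (right, 949 domains); each point is a domain and the line marks equal length. Points lie along the line, with 16 and 26 domains past 1.5-fold for H3K4me3 and 51 and 25 for H3K27ac.

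A few domains were broad at 1 stage and of ordinary width at the other. At chr16:92692722-92699422 fetal H3K4me3 covered 6701 bp in 1 peak and adult H3K4me3 2722 bp. The stages shared the right edge, where they differed by 87 bp, and the fetal peak ran 3892 bp farther to the left. H3K27ac followed the same outline, with 5625 bp in the fetal list and 2496 bp in the adult list. At chr2:26437953-26443673 the difference was larger in proportion, with 5721 bp of fetal and 1842 bp of adult H3K4me3, and H3K27ac of 5721 and 1801 bp. That fetal H3K27ac peak was 19192 bp long and extended 13149 bp beyond the left edge, the farthest of any domain. At chr11:6371341-6376970 H3K4me3 also differed, with 5520 against 2785 bp, yet H3K27ac did not follow: it covered 2913 bp in the fetal list and 2641 bp in the adult list.

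Domains broader in the adult list likewise differed in what lay under the extra H3K4me3. At chr16:33792607-33797380 adult H3K4me3 covered 4774 bp and fetal H3K4me3 1991 bp at the centre. H3K27ac filled the whole domain at both stages, and fetal H3K4me1 covered 4750 bp, so the stretch with H3K4me3 in the adult list alone had acetylation and H3K4me1 in the fetal list. At chr11:90244475-90252959 adult H3K4me3 covered 8485 bp against 5729 bp, and fetal H3K4me1 covered 210 bp. H3K27ac of 4066 bp in the fetal and 5450 bp in the adult list did not reach the left edge at either stage.

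Edges were compared one by one in the 948 domains with H3K4me3 at both stages, 1896 edges in all. The outermost H3K4me3 base of the 2 stages differed by a median of 128 bp, and 813 edges (42.9%) agreed within 100 bp. Within 500 bp lay 1660 edges (87.6%). In narrower active regions the median difference was 79 bp. As a share of the width of the region, the medians were 2.89% for broad domains and 3.79% for narrower regions, so the order depends on whether the difference is counted in bp or relative to width. The widest domains with all edges within 100 bp were chr4:133305793-133314059, with 8267 bp of fetal and 8201 bp of adult H3K4me3, chr6:127098329-127106203 and chr7:4604519-4611714.

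Where the edges of the stages differed by 500 bp or more, they mostly did so on 1 side of the domain. The fetal edge lay farther out by at least that much at 124 edges of 123 domains (13.0%), of which 122 had 1 such edge. The adult edge lay farther out at 112 edges of 105 domains (11.1%), of which 98 had 1 such edge and 7 had both. In 0 of 948 domains did the fetal list extend 1 end and the adult list the other (exact upper limit 0.388%), and in 720 (75.9%) both edges lay within 500 bp. Shifted edges were few, 6.54% of all edges toward the fetal and 5.91% toward the adult stage. Counts by side were not made for other regions, so whether the 1-sided pattern is particular to the domains was not tested. Among all merged regions with H3K4me3 at both stages, 2.4% had an edge that far out in the fetal list and 2.96% in the adult list, and among narrower active regions 1.61% and 1.93%. The higher shares of the broad domains are part of how they were chosen: the threshold was set on the merged width, so an extension at 1 stage helps a region to pass it. Regions of at least 3500 bp with H3K27me3, which passed the same threshold, had shares of 13.3% (7.82 to 20.7) and 16.7% (10.5 to 24.6).

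**Figure D3:**
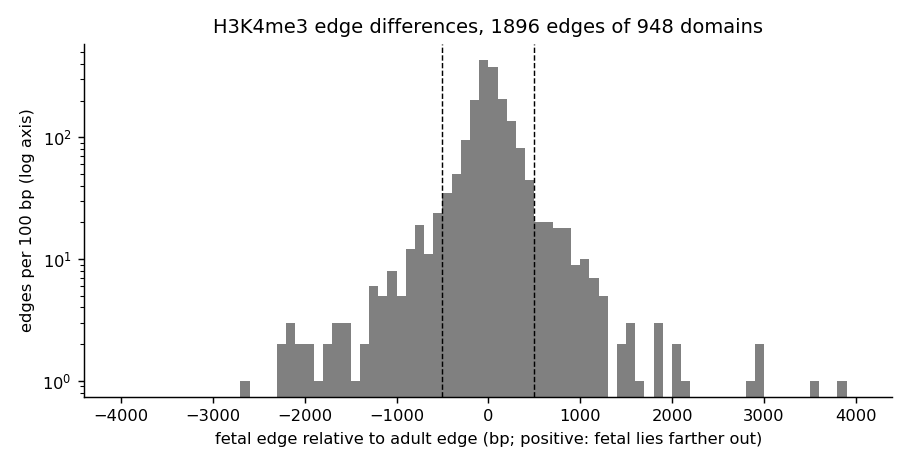
Distance between the fetal and the adult H3K4me3 edge at 1896 edges of 948 domains, in bp per bin of 100 bp, with the number of edges on a log axis; positive values mean that the fetal edge lies farther out and dashed lines mark 500 bp. Most edges (1660) lie between the lines, and 124 lie beyond on the fetal and 112 on the adult side.

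The stretches that carried H3K4me3 at 1 stage alone mostly overlapped H3K4me1 in the fetal list whichever stage had the H3K4me3, as did most unshifted edges. The 124 stretches with fetal H3K4me3 alone had a median length of 824 bp, and 118 of them (95.2%) overlapped fetal H3K4me1 while 30 (24.2%) overlapped adult H3K4me1. The 112 stretches with adult H3K4me3 alone had a median length of 833 bp, and 95 (84.8%) overlapped fetal H3K4me1 while 18 (16.1%) overlapped adult H3K4me1. H3K27ac was present at both stages in part of either kind: fetal H3K27ac overlapped 59.7% of the fetal and 58.9% of the adult stretches, and adult H3K27ac 41.9% and 53.6%. For reference, in the 800 bp outside the 1660 edges that differed by less than 500 bp, fetal H3K4me1 was found at 73.9%, adult H3K4me1 at 8.98%, fetal H3K27ac at 49.3% and adult H3K27ac at 28.7%. In the 800 bp inside the same edges the shares were 87.9%, 9.70%, 90.1% and 88.5%. For H3K27ac of either stage, the shifted stretches of either direction thus lay between the outside and the inside of unshifted edges. For fetal H3K4me1 this held for the adult stretches (84.8%), while the fetal stretches (95.2%) lay above both. For adult H3K4me1 the stretches of either direction, at 24.2% and 16.1%, lay above both. The stretches varied in length, unlike the fixed windows, and no test was available for this comparison.

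H3K27ac covered most of each domain. Its median length was 3586 bp in the fetal list, 88.9% of the domain, and 3438 bp in the adult list, 83.6%. Narrower active regions had nearly the same shares, 91.1% and 84.2%, whereas regions of at least 3500 bp with H3K27me3 had 72.7% and 66.8%. Acetylation was usually a single block, with 1 peak in 856 domains (90.2%) in the fetal list and in 795 (83.8%) in the adult list. In narrower active regions these shares were higher, 98.6% and 98.5%. Acetylation filled the domain from edge to edge in 179 fetal (18.9%) and 78 adult cases (8.22%), against 26.8% and 12.1% of narrower regions. It covered less than 50% of the domain in 26 (2.74%) and 47 (4.95%), against 1.71% and 1.62% of narrower regions. The domains were thus more often split and less often filled.

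The length of H3K27ac was also similar at both stages, with a slight excess in the fetal list. The median log2 ratio was 0.045 (0.035 to 0.058), and the fetal length was larger in 591 domains, the adult length in 310, with 48 equal. A difference of at least 1.5-fold was reached by 51 domains toward the fetal stage (5.37%), against 3.79% of all merged regions with H3K27ac at both stages. Toward the adult stage it was reached by 25 (2.63%), against 2.39%. The first share is above the background and the second close to it. The intervals of the domains were 4.03 to 7.01% toward the fetal and 1.71 to 3.86% toward the adult stage. Narrower active regions had lower shares, 3.21% (2.87 to 3.59) and 1.61% (1.37 to 1.88), with overlapping intervals toward the adult stage. Regions of at least 3500 bp with H3K27me3 had higher shares, 12.4% (6.76 to 20.2) and 9.52% (4.66 to 16.8), with overlapping intervals toward the fetal stage. No test of these shares was possible.

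Across 948 domains the log2 ratios of the marks had a Pearson r of 0.151 and a Spearman rho of 0.092, given as a description. Of the 51 domains with the longer fetal H3K27ac, 27 had the longer H3K4me3 in the fetal list and 24 in the adult list. In those 51 the fetal H3K27ac covered a median of 93.2% of the domain and the adult H3K27ac 49.8%. Of the 25 with the longer adult H3K27ac, 18 had the longer H3K4me3 in the adult list and 7 in the fetal list, and the medians were 55.3% and 91.3%. The median log2 ratio of H3K4me3 length was 0.020 in the first group and -0.065 in the second, medians over members that went both ways. These groups were selected on their H3K27ac ratio, so the size of that ratio beside the H3K4me3 ratio is no result.

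The domains with the largest differences in acetylated length are given as examples, selected on that difference. At chr16:75904003-75909983 H3K4me3 covered 5934 bp in the fetal and 4955 bp in the adult list, while H3K27ac covered 5213 and 2050 bp. At chr13:40981250-40988075 H3K4me3 covered 6252 and 6826 bp, while H3K27ac covered 3267 and 6361 bp. The fetal acetylation occupied the left part of that domain and the adult acetylation nearly all of it. At chr10:79315089-79321482 H3K27ac covered 3794 bp in the fetal list and all 6394 bp in the adult list, and the fetal peak continued 3506 bp beyond the left edge, so part of it lay outside the domain.

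H3K27ac passed beyond the H3K4me3 edge more often in the fetal list. Of 1898 edges, it ran past 427 (22.5%) at both stages, past 461 (24.3%) at the fetal stage alone, past 94 (4.95%) at the adult stage alone and past 916 (48.3%) at neither. Where it ran past, the median reach was 296.5 bp in the fetal and 243 bp in the adult list. Narrower active regions had shares of 23.1%, 24.7%, 4.13% and 48.0%, close to those of the broad domains. The fetal excess was therefore a feature of active H3K4me3 regions of either width in these lists.

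H3K4me1 took no part in the choice of the domains. In the fetal list it was found inside 935 of 949 domains (98.5%, 97.5 to 99.2), and in the adult list inside 223 (23.5%, 20.8 to 26.3). All 223 lay among the 935. Mean cover was 336 bp per kb of domain in the fetal list and 14.0 bp per kb in the adult list. Of narrower active regions, 92.3% had fetal and 12.3% adult H3K4me1 inside, with mean cover of 386 and 14.9 bp per kb. The domains thus held a peak more often, but had no more H3K4me1 per kb than narrower regions. The number of listed peaks moved with the difference between stages. With the 12523 best-scoring peaks taken from each list, fetal H3K4me1 was inside 46.5% of domains and adult H3K4me1 inside 23.5%. Depth and calling of the H3K4me1 libraries cannot be told apart from stage.

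Within a domain, H3K4me1 covered more of the rims than of the core. Fetal H3K4me1 covered 52.7% of the outer 1000 bp at either end and 18.4% of the core between, and 28.5% of the 2500 bp outside. Adult H3K4me1 covered 2.39%, 0.660% and 1.90% of the same parts, in the same order of rim, flank and core. The core was not free of the mark. Fetal H3K4me1 was found in the core of 535 domains (56.4%), and the rims held 69.7% of its bp inside the domains. In the 5389 narrower active regions wide enough to have a core, fetal H3K4me1 covered 41.2% of the rims, 6.87% of the core and 14.6% of the flanks. In steps of 250 bp across the edge, fetal H3K4me1 was at 15.5% of edges at 1500 bp inside, rose to 72.3% at 250 bp inside and fell to 62.1% at the edge, 25.2% at 1000 bp outside and 11.2% at 10 kb outside. H3K27ac had no such rim: it covered 89.6% of edges at 1000 bp inside, 46.9% at the edge and 12.1% at 1000 bp outside in the fetal list, and 88.1%, 27.5% and 7.27% in the adult list. H3K27me3, which no domain overlaps by the rule, lay within 5 kb of 13 domains (1.37%, 0.731 to 2.33) and of 408 narrower active regions (4.24%), which the same criterion had selected.

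**Figure D4:**
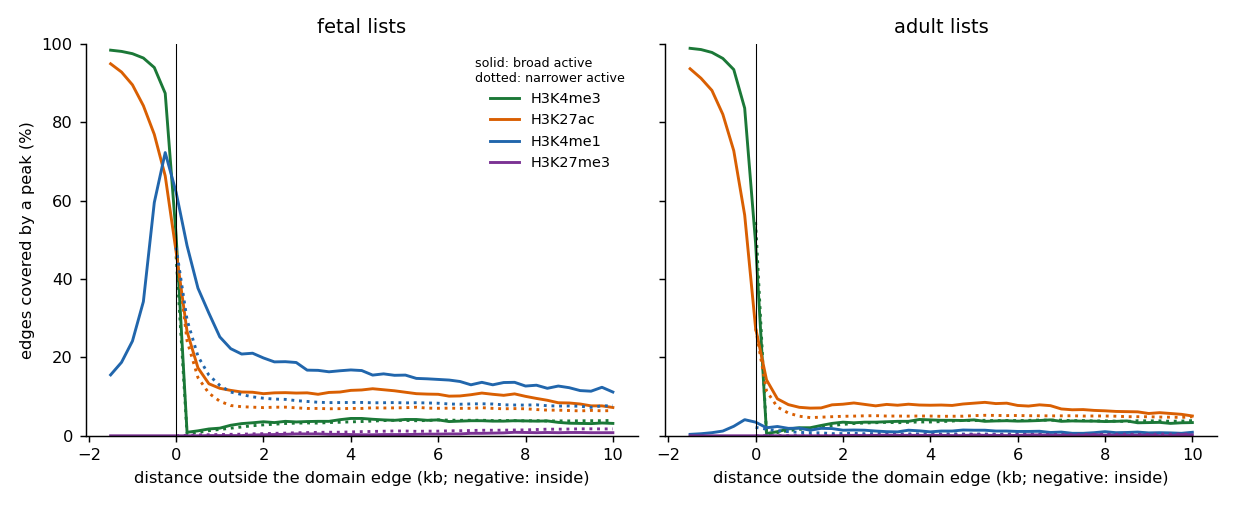
Percent of domain edges covered by a peak of each mark against the distance from the edge in kb, with negative distances inside, for fetal lists (left) and adult lists (right); solid lines are broad active domains (1898 edges) and dotted lines narrower active regions (19232 edges, drawn outside the edge). Fetal H3K4me1 peaks at 72.3% of edges at 250 bp inside and stays above the dotted line to 10 kb, and adult H3K4me1 stays low throughout.

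Flanks of a fixed 2500 bp on either side, whose length does not depend on the width of the domain, carried fetal H3K4me1 at 896 domains (94.4%, 92.8 to 95.8) and adult H3K4me1 at 253 (26.7%, 23.9 to 29.6). Narrower active regions had 78.5% (77.7 to 79.3) and 14.4% (13.7 to 15.1), and regions of at least 3500 bp with H3K27me3 had 77.7% and 14.0%. Broad active domains therefore had the higher share at either stage, by 15.9 points over narrower regions in the fetal list and by 12.3 points in the adult list. Both flanks were marked at 591 domains in the fetal list and at 34 in the adult list. Peak strength moved with width: the best H3K4me3 peak had a score at or above 3100, where the authors' scores pile up, in 93.7% of domains in the fetal and 90.2% in the adult list, against 45.2% and 30.4% of narrower regions. Among regions at that score in both lists, the fetal flank shares were 94.5% and 84.4% and the adult shares 24.7% and 10.4%.

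Flanking H3K4me1 was more frequent at edges that H3K27ac ran past. In the adult list it was found beside 159 of 521 such edges (30.5%, 26.6 to 34.7) and beside 128 of 1377 others (9.30%, 7.81 to 10.95). In the fetal list the shares were 82.1% and 75.05%. Narrower active regions had 19.9% and 3.92% in the adult list and 67.4% and 49.9% in the fetal list, so the same order held there. The most adult H3K4me1 inside a domain was 1849 bp at chr1:90169872-90176135, followed by 1478 bp in 6 peaks at chr5:122283310-122289455, and the fetal list covered 3390 and 4390 bp of the same domains. After the widest domain, the most fetal H3K4me1 was 6248 bp at chr19:46111380-46120951, where the adult list had 172 bp.

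The 14 domains without fetal H3K4me1 inside were not weak in fetal H3K4me3, since 13 had a best peak at a score of at least 3100 in the fetal list. Their widths ran from 3525 to 6456 bp with a median of 3867 bp. Fetal distal H3K27ac was missing within 50 kb of 12 of them, against 328 of all 949 domains, and 7 had fetal H3K4me1 in neither the domain nor its flanks. The group is small, and its lack of fetal H3K4me1 is what defined it.

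Distal H3K27ac elements were defined as merged H3K27ac peaks of both stages that overlap no H3K4me3 peak, 11540 in all, and were counted when their centre lay within 50 kb of an edge. Domains had a mean of 1.62 (SD 1.80 over domains) fetal and 0.940 (SD 1.38) adult elements. At least 1 element was found near 621 domains (65.4%, 62.3 to 68.5) in the fetal list and 440 (46.4%, 43.2 to 49.6) in the adult list, and 3 or more near 218 and 111. Neither stage had one near 301 domains. Fetal elements outnumbered adult ones at 429 domains (45.2%), against 33.1% of all merged regions, and adult elements outnumbered fetal ones at 80 (8.43%), against 5.82%. Both shares are above the background of all regions, and narrower active regions had 35.9% and 6.65%. An element of either stage lay near 648 domains and 5262 narrower active regions. Of these, fetal elements outnumbered adult ones at 429 domains and 3451 narrower regions, and adult ones fetal ones at 80 and 639. Among regions with an element, the shares were thus similar in broad and narrower regions. With equal numbers of best-scoring H3K27ac peaks from both lists, the means were 1.06 fetal and 0.943 adult elements, so most of the difference between stages moved with the size of the lists.

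Broad domains had more distal elements nearby than narrower active regions, which had means of 1.07 fetal and 0.569 adult elements, a ratio of 1.51 and 1.65. Regions of at least 3500 bp with H3K27me3 had 0.959 and 0.488. The number of other H3K4me3 regions in the same flanks was 2.14 for broad domains and 2.14 for narrower regions, so the mean local density of H3K4me3 regions was the same. Where no other H3K4me3 region lay in the flanks, the means were 1.62 and 0.810 for 221 domains against 0.909 and 0.373 for 2142 narrower regions. Among regions with scores of at least 3100 in both lists, they were 1.53 and 0.895 against 0.904 and 0.484. The higher counts of the domains were present at either stage in each of these comparisons, for which regions are not replicates and no test was made.

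The counts did not rise evenly with width. Active regions under 1000 bp had the second highest means, 1.93 fetal and 1.002 adult elements, and those of 1500 to 2000 bp the lowest, 0.881 and 0.458. From there the means rose to 1.36 and 0.775 in domains of 3500 to 4000 bp, 1.596 and 0.923 at 4000 to 5000 bp, and 2.18 and 1.32 from 5000 bp on. Among the domains alone, width and count were weakly related, with a Spearman rho of 0.155 for fetal and 0.140 for adult elements. Flanking H3K4me1 followed a similar curve in the adult list, with 42.5% of regions under 1000 bp, the highest share, 9.26% at 1500 to 2000 bp and 37.4% of domains of at least 5000 bp. In the fetal list the shares were 93.1%, 68.3% and 94.4%.

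**Figure D5:**
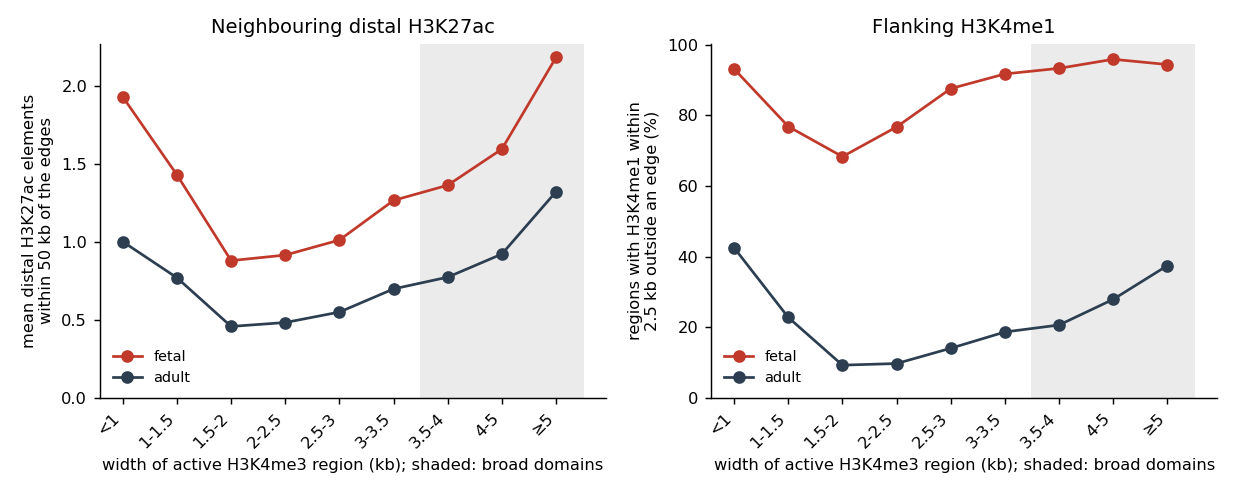
Mean number of distal H3K27ac elements within 50 kb (left) and percent of regions with H3K4me1 within 2.5 kb outside an edge (right) by width of the active H3K4me3 region in kb, for fetal (red) and adult (dark) lists; shading marks the broad domains. Both measures are lowest at 1.5 to 2 kb, and the domains of at least 5 kb reach means of 2.18 fetal and 1.32 adult elements.

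Elements were densest 5 to 10 kb from the edge of a domain, at 2.17 fetal and 1.15 adult elements per 100 domains and kb of flank. The values were 1.58 and 0.969 at 0 to 5 kb and 1.48 and 0.843 at 20 to 50 kb. Next to the edge the count is limited by the definition, since H3K27ac that runs on from the domain is not a distal element. Narrower active regions had 1.32 and 0.688 at 5 to 10 kb and 1.01 and 0.534 at 20 to 50 kb. Of all distal elements, 1616 (14.0%) lay within 50 kb of a broad domain. Among them 615 (38.1%, 35.7 to 40.5) were present at both stages, 807 (49.9%) in the fetal list alone and 194 (12.0%) in the adult list alone. Elements elsewhere were shared in 28.7% (27.8 to 29.6), fetal alone in 63.3% and adult alone in 8.07%. Narrower active regions came closer to the broad domains in this respect, with a mean of 0.423 shared elements out of 1.21 per region, against 0.699 out of 1.86 per domain.

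The domain with the most neighbours was chr9:63602873-63607790, with 11 elements, 10 in the fetal and 6 in the adult list. No other H3K4me3 region lay within 50 kb of it, and 9 of the 11 elements were on its left, the nearest 5 of these in the fetal list alone and the farther 4 at both stages. The domain itself differed little between stages, with 4617 and 4422 bp of H3K4me3. At chr8:119779714-119783695 the numbers were 8 fetal and 9 adult out of 10 elements, 7 of them shared, so the surroundings of that domain were alike. At chr19:53602539-53606434 they were 10 fetal and 2 adult, with 8 elements in the fetal list alone, and H3K4me3 there was also longer in the fetal list, at 3896 against 2815 bp. Over all domains the log2 ratio of H3K27ac length and the fetal minus adult number of elements had a Spearman rho of 0.106, a weak relation given as a description.

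Broad domains were found on every autosome. Their share of the merged H3K4me3 regions ran from 3.64% (2.65 to 4.87) on chromosome 4 to 6.89% (5.03 to 9.17) on chromosome 19, and chromosome 11 had the most, 96. The median gap to the next domain was 991112 bp. Of 930 gaps, 122 were under 100 kb and 12 under 10 kb. The closest pair, chr17:84579703-84583907 and chr17:84583969-84588969, was separated by 61 bp, and on chromosome 13 the 3 domains chr13:23514601-23518243, chr13:23521441-23525765 and chr13:23527097-23530982 followed each other with gaps of 3197 and 1331 bp.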

How the data were processed

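ChIP-seq peak lists of 4 histone modifications at 2 stages were used, 8 in all. Per the submitters' processing notes, Bowtie2 2.2.2 and the mm9 build were used. The deposited peaks are named with a MACS prefix, and the caller's version, settings and control are not given in the sources used here. Peak scores are values that the authors deposited, without a stated unit, and served only to rank and select peaks of the same list. Inputs and single replicates were not analysed here.

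Starts were converted to 1-based coordinates. Covered bp, edges, H3K4me1 and distal H3K27ac were computed with Python 3.11.15, numpy 2.4.6 and pandas 2.3.3, intervals with scipy 1.17.1 and plots with matplotlib 3.10.9, and the code was tested on simulated data. The intervals of medians are order-statistic intervals over domains. The regions named were the 5 widest domains, those with the largest differences between stages in H3K4me3 and in H3K27ac (3 per direction), the 3 with the most distal elements, the 2 with the most H3K4me1 per stage, the widest 3 with equal edges, the domain with H3K4me3 at 1 stage only, and those next to the width threshold. The close pairs, the cluster on chromosome 13 and the domains without fetal H3K4me1 were singled out after their values were seen. The members and lists were chosen with earlier results of these data known.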

Additional observations from a re-analysis of the deposited data

Results flagged for a closer look

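Chromosome X was outside the rule for the domains. There, 14 of 557 merged H3K4me3 regions (2.51%, 1.38 to 4.18) met the criteria of width, H3K27ac and H3K27me3, with a median width of 4035 bp and a largest width of 5041 bp. It is listed because it comes from a chromosome not used in the comparisons above. The lowest share on an autosome was 3.64%, on chromosome 4.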

How the results depend on the processing

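Under the 69 alternatives computed for 19 results, no ratio or difference changed sign, and 34 values moved by less than their interval or, for counts, by less than 1.5 times. With widths of at least 3000, 4000 and 5000 bp there were 1780, 532 and 195 domains. With a difference of at least 25% and with at least 2-fold, H3K4me3 was longer in the fetal list in 71 and 3 domains and in the adult list in 61 and 6, and H3K27ac was longer in the fetal list in 142 and 9 and in the adult list in 65 and 2. With peaks at or above the median score of each list, 29 domains had H3K4me3 at least 1.5-fold longer in the fetal list and 30 in the adult list. For shifts of 250 and 1000 bp, an edge lay farther out in the fetal list in 289 and 39 domains and in the adult list in 217 and 41. The order of the stages therefore turned at 25% for H3K4me3 length, where the fetal count was the higher, and at 1000 bp for edges, where the adult count was the higher.

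With 500 bp of H3K4me1 needed, 89.7% of domains had it inside in the fetal and 2.42% in the adult list. In flanks of 1000 and 5000 bp the shares were 92.1% and 95.9% fetal and 19.4% and 34.5% adult, and the adult difference from narrower regions was 8.11 and 15.9 points. With equal numbers of best-scoring peaks, fetal H3K4me1 was inside 46.5% and in the flanks of 48.1% of domains, and the flank difference was 22.4 points. That difference was 10.1 points at scores of at least 3100 in both lists. Mean distal elements per domain were 0.729 fetal and 0.434 adult within 20 kb, 2.89 and 1.58 within 100 kb, and 1.43 and 0.817 more than 2 kb from H3K4me3, and 1.06 fetal with equal numbers of peaks. The ratio to narrower regions stayed between 1.43 and 1.78 in the fetal and between 1.48 and 2.17 in the adult list over these settings. Restricting to that score and to regions without another H3K4me3 region nearby were chosen after seeing the data.

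No paired analysis was possible because each mark and stage has 1 combined list, and for the same reason no replicate was left out. Read depth is unknown, and signal below the authors' threshold for a peak was not analysed here.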
